A study of Danio rerio with 7 samples.

Results

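The transcripts described here are those far more abundant in the brightly fluorescent cells than in the dim cells sorted from adult zebrafish brain. They were chosen by their measured levels: a mean of at least 50 CPM (the estimated count of a transcript, scaled to a library total of 1000000) in the 4 GFP high libraries, and a mean at least 8 times that of the 3 GFP low libraries. A mean under 1000 TPM (a measure on the same scale that also divides by transcript length) over all 7 libraries and at least 1 count in 1 GFP low library were required too. Of 51033 transcripts, 3738 reached the level in GFP high, 60 of these also reached the ratio, and 59 met every condition. The 1 transcript left out by the TPM limit was ENSDART00000139096.1.

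GFP high and GFP low are bright and dim cells from brains of untreated gfap:GFP transgenic fish, 3 months old. Both groups carry the same transgene, in which the gfap promoter drives green fluorescent protein, and both are labelled as ependymoglia. There were 4 GFP high libraries (replicates 1 to 4) and 3 GFP low libraries (replicates 3 to 5), and no label ties a replicate to its own animal or pool. The p-values below therefore cover the variation among these 7 libraries, part of which can be technical. The question addressed is what sets bright reporter cells apart from dim ones in the uninjured brain.

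Ependymoglia are the radial glia of the adult fish brain. Their cell bodies line the ventricles, they carry long processes to the brain surface, and they serve as neural stem cells that make new neurons in normal life and after injury. The gfap gene codes for glial fibrillary acidic protein, an intermediate filament protein of astrocytes and radial glia, which is why its promoter is used to mark these cells.

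The files identify transcripts by Ensembl identifier only. None of the identifiers matched the tables of gene names used here (0 matches), so members are named by identifier, no role is given to any of them, and the labelled cell type was not checked against marker genes. Total estimated counts were 20076316 to 25545771 in the GFP high libraries and 10629958 to 21796218 in the GFP low libraries. A level of 0.117 to 0.149 CPM stands for 3 counts in the GFP high libraries, against 0.282, 0.138 and 0.231 CPM in GFP low replicates 3 to 5, and GFP low replicate 3 was the shallowest library. In bulk libraries such as these, fewer cells that contain a transcript and less of it per cell cannot be told apart.

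The 59 transcripts were a small part of the RNA of the bright cells and a much smaller part of that of the dim cells. They took 1.13%, 1.265%, 1.325% and 1.303% of the estimated counts of GFP high replicates 1 to 4, against 0.09335%, 0.06235% and 0.05815% for GFP low replicates 3 to 5. The means were 1.26% ± 0.0875 (SD, n = 4) for GFP high, against 0.0713% ± 0.0192 (SD, n = 3) for GFP low. Every member was selected with a ratio of at least 8, so this contrast follows from the selection and is given as a description. Per member, the mean level ran from 50.3 to 2305 CPM in GFP high, with a median of 99.7 CPM, and from 0.178 to 149 CPM in GFP low, with a median of 6.82 CPM. The ratio of the means was 8.25 to 396, with a median of 15.55. It lay under 16 for 30 members, from 16 to 32 for 13, from 32 to 64 for 9 and at 64 or more for 7.

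In edgeR's quasi-likelihood test, adjusted over the 33114 transcripts tested, 59 of the 59 members passed a false discovery rate of 5% with higher levels in GFP high, where 10.2% of all tested transcripts did. In 59 of 59 every GFP high library lay above every GFP low library, against 13.8% of all tested transcripts. Both counts follow from how the members were chosen and are given as a description. Their log2 fold changes, GFP high minus GFP low, were 3.12 to 8.85 with a median of 4.17, beside a median of 0.0050 over all tested transcripts. The closest approach of the groups was seen for ENSDART00000149610.1. It was at 41.6, 72.8, 65.2 and 52.7 CPM in GFP high replicates 1 to 4, against 10.48, 4.18 and 2.65 CPM in GFP low replicates 3 to 5, so its lowest bright library was 3.97 times its highest dim library. In 33 of the 59, every GFP high library was at least 8 times every GFP low library. The selection used the same ratio on the group means, so this count too is given as a description.

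**Figure D1:**
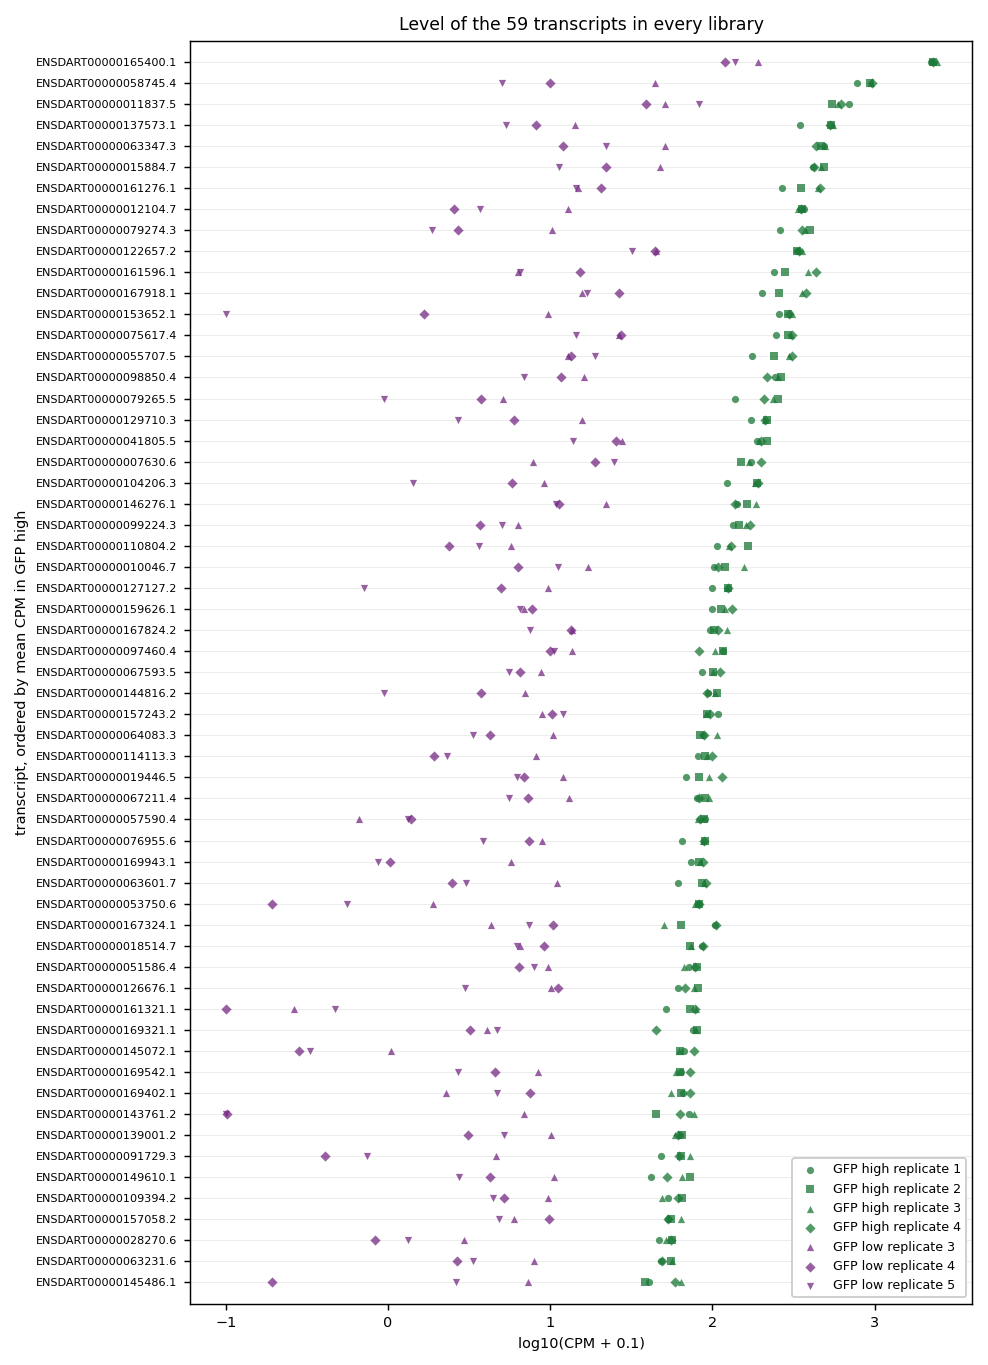
Level of each of the 59 transcripts as log10(CPM + 0.1), with 1 row per transcript, green points for the GFP high libraries and purple points for the GFP low libraries, and a marker shape for each replicate number. In every row all green points lie to the right of all purple points, and in most rows the purple points are spread more widely than the green ones.

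The member with the most counts was ENSDART00000165400.1, of 4268 bases. It was at 2215, 2303, 2417 and 2287 CPM in GFP high replicates 1 to 4, against 191, 119 and 137 CPM in GFP low replicates 3 to 5. The bright libraries differed little among themselves, by a coefficient of variation (SD over mean) of 3.62%, and the dim libraries by 25.1%. Its log2 fold change was 4.08 ± 0.17 (SE; adjusted p = 2.86e-05 by edgeR). It made up 17.55% to 19.6% of the members' counts in the GFP high libraries and 19.16% to 23.56% in the GFP low libraries. Without it the members took 1.02% ± 0.0807 (SD, n = 4) of the counts in GFP high and 0.0564% ± 0.0158 (SD, n = 3) of those in GFP low.

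Per length, another member stood highest. ENSDART00000058745.4, of 1489 bases, was at 1010, 1198, 1249 and 1217 TPM in GFP high replicates 1 to 4, against 54.5, 11.35 and 6.44 TPM in GFP low replicates 3 to 5. It ranked 73 among all transcripts by mean TPM in GFP high, and ENSDART00000165400.1, with 962 TPM ± 39.7 (SD, n = 4), ranked 94. ENSDART00000165400.1 was at 933.7, 957.0, 1019 and 937.0 TPM in GFP high replicates 1 to 4. The libraries of the 2 transcripts overlap in range, but within each GFP high library ENSDART00000058745.4 was the higher. Of the 59 members, 24 were among the 1000 transcripts with the highest mean TPM in GFP high and 0 among the 1000 highest in GFP low. This contrast of ranks follows largely from how the members were chosen and is a description. In counts, ENSDART00000058745.4 averaged 905 CPM ± 88.5 (SD, n = 4) in the bright libraries, against 19.6 CPM ± 21.3 (SD, n = 3) in the dim ones. The SD in GFP low exceeds the mean because replicate 3, at 44.1 CPM, was well above replicates 4 and 5, at 9.84 and 4.93 CPM. Its log2 fold change was 5.68 with all libraries and 6.998 without GFP low replicate 3.

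ENSDART00000079274.3, of 963 bases, was the third by TPM, with a mean of 744 TPM ± 127 (SD, n = 4) in GFP high, against 9.85 TPM ± 9.48 (SD, n = 3) in GFP low. Its counts stood at 260.4, 398.5, 373.3 and 358.9 CPM in GFP high replicates 1 to 4, against 10.15, 2.59 and 1.78 CPM in GFP low replicates 3 to 5. Its log2 fold change was 6.36, and 7.39 without GFP low replicate 3. The next by TPM were ENSDART00000161276.1 at 586.5 TPM ± 136 in GFP high and 24.0 TPM ± 3.46 in GFP low (SD, n = 4 and 3), and ENSDART00000137573.1 at 550.0 TPM ± 109 in GFP high and 9.73 TPM ± 4.82 in GFP low (SD, n = 4 and 3). In each GFP high library ENSDART00000079274.3 was above both of these, at 562.9, 848.1, 810.2 and 753.9 TPM in replicates 1 to 4. ENSDART00000161276.1 was at 416.8, 536.9, 694.5 and 697.9 TPM there. ENSDART00000137573.1 was at 389.4, 600.9, 629.0 and 580.7 TPM, so the order between it and ENSDART00000161276.1 differed between libraries.

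The next 3 members described here, also high in counts, kept from 5.98% to 9.38% of their bright-cell level in the dim cells, against a median of 6.43% over the 59. ENSDART00000011837.5, of 2422 bases, was at 697, 549, 592 and 623 CPM in GFP high replicates 1 to 4, against 51.1, 39.0 and 83.02 CPM in GFP low replicates 3 to 5, a ratio of means of 10.67. In GFP low it averaged 42.5 TPM ± 19.25 (SD, n = 3), the highest per length after ENSDART00000165400.1 with 59.8 TPM ± 15.99 (SD, n = 3), and its order among the dim libraries was not the usual one, with replicate 5 the highest. ENSDART00000063347.3, the second longest member at 5564 bases, was at 487, 468, 495 and 436 CPM in GFP high, against 50.6, 11.9 and 22.0 CPM in GFP low replicates 3 to 5. ENSDART00000015884.7, of 2520 bases, was at 416, 487, 466 and 422 CPM in GFP high, against 47.6, 22.1 and 11.2 CPM in GFP low. For both of these GFP low replicate 3 was the highest dim library, and without it their log2 fold changes were 4.95 and 4.82, against 4.22 and 4.18 with all libraries.

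The largest ratios were found for transcripts that were close to undetected in GFP low. ENSDART00000161321.1, the shortest member at 744 bases, was at 51.6, 72.2, 79.4 and 77.7 CPM in GFP high replicates 1 to 4, against 0.163, 0 and 0.369 CPM in GFP low replicates 3 to 5. Its ratio of 396 rests on 7 counts in the 3 dim libraries together, against 6592 in the bright ones, and its log2 fold change of 8.85 moved to 10.06 without GFP low replicate 5, where 2 counts remain in the dim libraries, and to 8.05 without replicate 4. ENSDART00000145072.1, of 1967 bases, was at 66.9, 62.8, 62.55 and 77.2 CPM in GFP high, against 0.941, 0.184 and 0.231 CPM in GFP low replicates 3 to 5. It had 6333 counts in the bright libraries and 17 in the dim ones, whole in all 7 libraries, and a ratio of 149. Without GFP low replicate 3 its log2 fold change was 8.44, against 7.53 with all libraries.

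ENSDART00000053750.6, of 2217 bases, combined the evenest level in the bright cells with one of the most uneven in the dim cells. It was at 81.7, 82.3, 78.4 and 83.1 CPM in GFP high, a coefficient of variation of 2.54%, the lowest of the 59. In GFP low replicates 3 to 5 it was at 1.79, 0.0918 and 0.462 CPM, and these values rest on 27 counts in all. The ratio was 104, and the log2 fold change of 7.09 moved to 8.50 without GFP low replicate 3 and to 6.41 without replicate 4.

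ENSDART00000057590.4, of 1419 bases, had another order in the dim libraries. It was at 89.6, 89.1, 80.85 and 83.85 CPM in GFP high replicates 1 to 4, against 0.564, 1.28 and 1.23 CPM in GFP low replicates 3 to 5, so replicate 3 was the lowest of the 3. Its ratio was 83.6, and its log2 fold change of 6.42 stayed between 6.19 and 6.71 when each library was left out in turn. ENSDART00000153652.1, of 1529 bases, showed the opposite, with 258.9, 291, 310.4 and 295.6 CPM in GFP high and 9.66, 1.58 and 0 CPM in GFP low replicates 3 to 5. Its log2 fold change was 6.50 with all libraries and 8.38 without GFP low replicate 3.

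The members nearest the limits of the selection are given for their values alone. Just inside the 8-fold limit lay ENSDART00000157058.2, with 56.2 CPM in GFP high and 6.82 CPM in GFP low (ratio 8.25), ENSDART00000122657.2, with 339.7 and 40.1 CPM in the same order (ratio 8.48), and ENSDART00000041805.5, with 199 and 22.3 CPM (ratio 8.95). Just outside lay ENSDART00000142492.3, with 103.6 CPM in GFP high and 13.7 CPM in GFP low (ratio 7.58), and ENSDART00000163976.1 and ENSDART00000164337.1, with ratios of 7.57 and 7.49. At the limit of 50 CPM, ENSDART00000145486.1, ENSDART00000063231.6 and ENSDART00000028270.6 were just inside with means of 50.3, 52.1 and 52.4 CPM in GFP high. ENSDART00000032788.7, ENSDART00000081946.4 and ENSDART00000152971.1 were just outside with 47.5, 47.2 and 46.4 CPM. The transcript left out by the TPM limit, ENSDART00000139096.1, was at 3177, 3563, 3769 and 3597 CPM in GFP high replicates 1 to 4, against 164.8, 13.5 and 8.54 CPM in GFP low replicates 3 to 5.

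What remained of the members in the dim cells differed between transcripts and between libraries. As a share of a member's mean level in GFP high, the level in GFP low had a median of 8.15% in replicate 3, 4.93% in replicate 4 and 4.55% in replicate 5. The shares ranged over the members from 0.233% to 18.04% in replicate 3, from 0 to 17.4% in replicate 4 and from 0 to 14.3% in replicate 5. The 59 transcripts did not keep one common fraction of their bright-cell level in any dim library. The median coefficient of variation of the members was 10.25% within GFP high, against 50.4% within GFP low. For the other 3679 transcripts of at least 50 CPM in GFP high the medians were 9.32% within GFP high and 14.5% within GFP low. The members had a median of 9355 counts over the 4 GFP high libraries, against 302 over the 3 GFP low libraries, and the part of counting error in the spread was not tested.

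**Figure D2:**
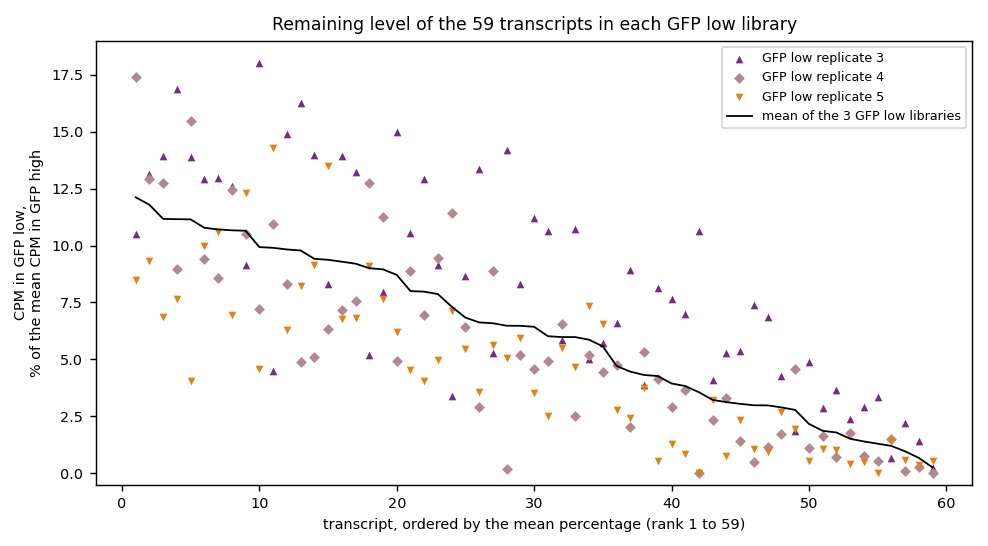
CPM in each GFP low library as a percentage of the mean CPM in GFP high, for the 59 transcripts ordered by the mean over the 3 GFP low libraries (black line, from 12.1% down to 0.253%). The triangles of GFP low replicate 3 lie above the line for most transcripts, and the points of the 3 libraries are far apart for many of them.

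GFP low replicate 3 was the highest of the dim libraries for 42 of the 59 members (71.2%), GFP low replicate 4 for 11 (18.6%) and GFP low replicate 5 for 6 (10.2%). Among the other 3679 transcripts of at least 50 CPM in GFP high these numbers were 868 (23.6%), 970 (26.4%) and 1841. Of the 17 members whose counts were whole in all 7 libraries, 14 were highest in GFP low replicate 3. This order was not used to choose the members. It is a description, since the transcripts share the same 3 libraries, and no test was made. GFP low replicate 3 is also the library with the fewest counts, and the part that depth has in the order was not tested.

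The order in GFP low was not the same for all members with replicate 3 on top. For 25 of them, 42.4% of the 59, replicate 4 came second and replicate 5 last. The same order held for 9.95% of the other 3679 transcripts of at least 50 CPM in GFP high. It also held for 34.0% of the 150 transcripts chosen by the same limits in the opposite direction, so it was not particular to the members. ENSDART00000127127.2, of 1360 bases, is an example chosen after its values were seen, with 99.9 to 124.9 CPM in GFP high, against 9.60, 4.86 and 0.616 CPM in GFP low replicates 3 to 5. ENSDART00000144816.2 (6.94, 3.62 and 0.847 CPM in GFP low replicates 3 to 5), ENSDART00000104206.3 (9.09, 5.69 and 1.32 CPM) and ENSDART00000079265.5 (5.004, 3.65 and 0.843 CPM) showed the same steep order. For 17 others, 28.8% of the 59, replicate 5 came second and replicate 4 last. That order held for 13.6% of the other 3679 and for 5.33% of the 150. The widest range among the 17 was that of ENSDART00000145486.1. It was at 40.8, 38.1, 64.01 and 58.4 CPM in GFP high replicates 1 to 4. In GFP low replicates 3 to 5 it was at 7.15, 0.0918 and 2.54 CPM, from 76, 2 and 33 counts. The width of this range therefore rests on 2 counts in replicate 4.

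The most extreme dependence on 1 dim library was that of ENSDART00000143761.2, of 2254 bases. It was at 71.5, 44.65, 77.0 and 63.0 CPM in GFP high replicates 1 to 4. In GFP low it had 73 counts, 6.82 CPM, in replicate 3 and rounded to 0 counts in replicates 4 and 5. Its log2 fold change was 5.15 ± 1.18 (SE; adjusted p = 0.0173 by edgeR), the least certain of the 59, with adjusted p = 0.0609 in DESeq2. Its counts were not whole in any library, so they depend on how reads were shared out between transcripts. Without GFP low replicate 3 both remaining dim libraries hold no count of it, and the fitted fold change is then no bound.

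Leaving out GFP low replicate 3 moved the fold change by over 1.5 times for 21 of the 59 members, upwards in 21 of 21. Leaving out GFP low replicate 4 did so for 6 members, 2 of them upwards, and leaving out GFP low replicate 5 for 3. No GFP high library moved the fold change of any of the 59 by that much when left out. Leaving out the highest dim library raises the fold change, so the upward moves follow from the order of the dim libraries given above. The median log2 fold change of the members was 4.32 without GFP low replicate 3, 4.1 without replicate 4 and 3.99 without replicate 5. With each of the 7 libraries left out in turn, 59 of 59 members passed 5% in edgeR's test. Over all transcripts 2313 to 3509 passed in these fits with higher levels in GFP high. The members' count follows largely from how they were chosen and is given as a description.

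Within the bright cells GFP high replicate 1 tended to hold the lowest level. It was the lowest of the 4 for 35 of the 59 members (59.3%), and for 33.3% of the other 3679 transcripts of at least 50 CPM in GFP high. The differences were small for most members: the highest GFP high library was 1.06 to 2.11 times the lowest, with a median of 1.28, and 25 of the 59 had a coefficient of variation under 10%. ENSDART00000137573.1, of 1694 bases, stood at 345 CPM in GFP high replicate 1, against 539.8, 556 and 529 CPM in replicates 2 to 4. In GFP low replicates 3 to 5 it was at 14.15, 8.06 and 5.27 CPM. ENSDART00000079265.5, of 1673 bases, stood at 138 CPM in GFP high replicate 1, against 255, 236 and 209 CPM in replicates 2 to 4. Of the 35 members lowest in GFP high replicate 1, 27 (77.1%) were highest in GFP low replicate 3, and of the other 24 members 15 (62.5%) were.

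A second pattern in the bright cells was a shared order of all 4 libraries. Replicate 1 was the lowest, then replicates 2, 3 and 4, for 13 of the 59 members (22.0%), for 5.14% of the other 3679 transcripts of at least 50 CPM in GFP high and for 3.33% of the 150 transcripts chosen by the same limits in the opposite direction. For 6 of these replicate 4 was at least 1.4 times replicate 1, a limit set after the values were seen. ENSDART00000167918.1, of 1785 bases, was at 201.5, 258.3, 355 and 375 CPM in GFP high replicates 1 to 4, and replicate 4 was 1.86 times replicate 1. ENSDART00000161596.1, of 1309 bases, was at 238, 278.5, 387 and 435 CPM, and 1.83 times. ENSDART00000055707.5, of 1224 bases, was at 175.7, 238, 297.5 and 309.7 CPM, and 1.76 times. ENSDART00000161276.1, of 1279 bases, was at 268.9, 352, 447 and 463 CPM, and 1.72 times. These 4 had coefficients of variation of 23.6% to 27.5% in GFP high, and their shared rise there follows from how they were picked. They were set apart from the rest of the 6 after their values were seen. ENSDART00000019446.5, given below, was close to them, at 1.67 times and a coefficient of variation of 21.6%.

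In the dim cells the same 4 departed from the usual order, with none of them highest in GFP low replicate 3. ENSDART00000167918.1 was at 15.7, 26.4 and 16.7 CPM in GFP low replicates 3 to 5, ENSDART00000161596.1 at 6.21, 15.2 and 6.44 CPM, and ENSDART00000161276.1 at 14.8, 20.4 and 14.3 CPM, each highest in replicate 4. ENSDART00000055707.5 was at 12.8, 13.3 and 18.8 CPM, highest in replicate 5. Their ratios of means were 15.2, 36.0, 23.2 and 17.1 in the same order. The log2 fold change of ENSDART00000161596.1 was 5.23 with all libraries and 5.90 without GFP low replicate 4. Counts of these 4 were not whole in most libraries, and the files do not show whether they share reads with each other. The other 2 of the 6, ENSDART00000019446.5 and ENSDART00000063601.7, both of 1273 bases, had whole counts in all 7 libraries. ENSDART00000019446.5 was at 68.5, 82.6, 95.7 and 114.5 CPM in GFP high replicates 1 to 4, against 11.95, 6.84 and 6.16 CPM in GFP low replicates 3 to 5. ENSDART00000063601.7 was at 61.2, 85.9, 88.3 and 91.1 CPM in GFP high, against 10.9, 2.39 and 2.92 CPM in GFP low, so these 2 did follow the usual order in the dim cells.

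**Figure D3:**
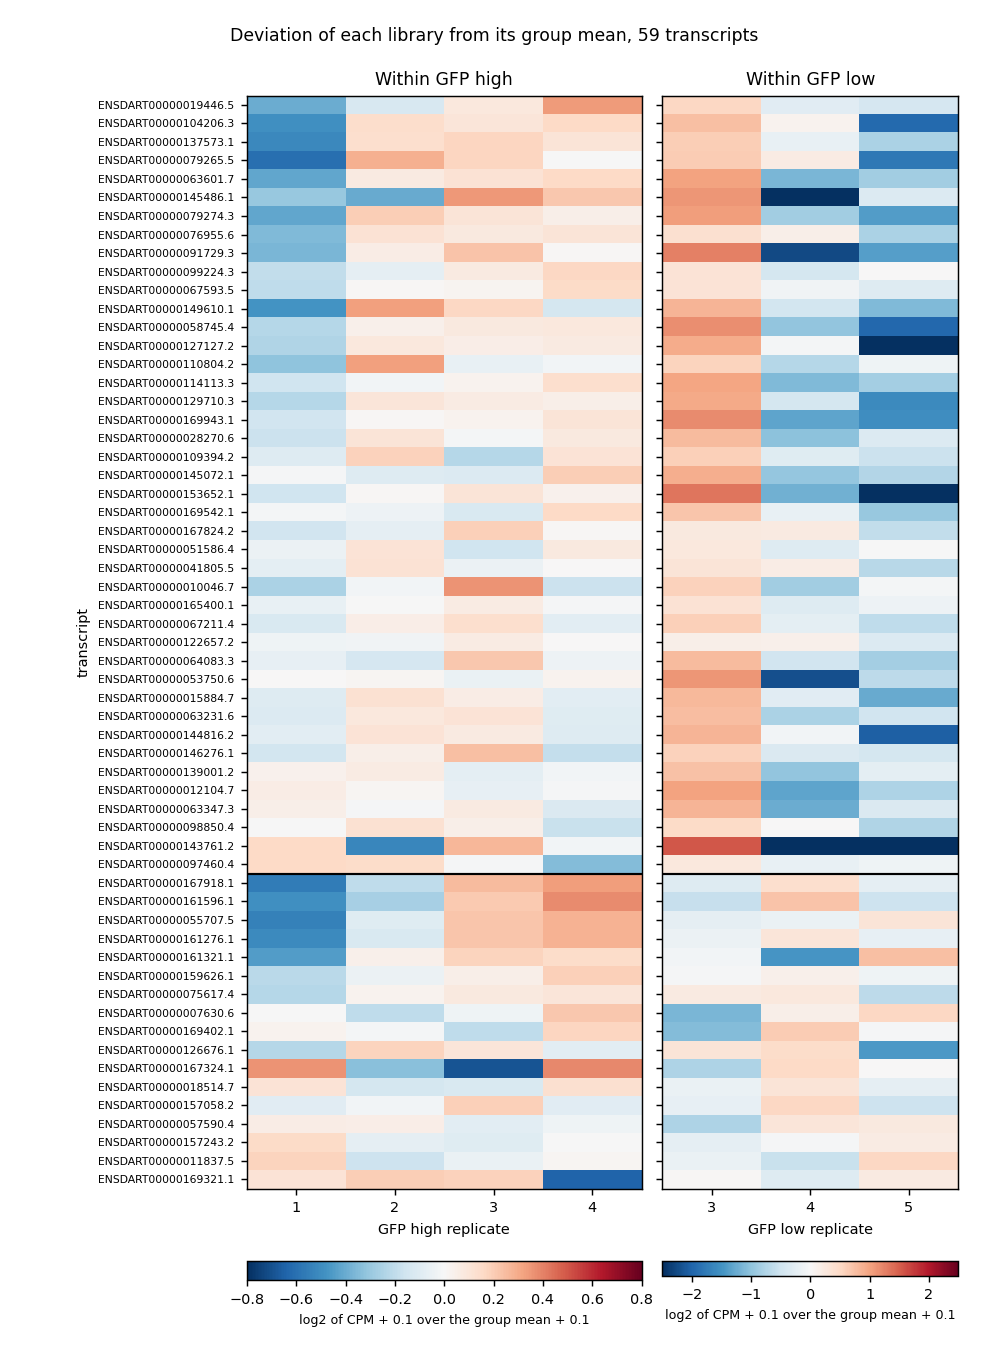
Deviation of each library from the mean of its own group, as log2 of CPM + 0.1 over the group mean + 0.1, with GFP high replicates 1 to 4 on the left and GFP low replicates 3 to 5 on the right (with a wider colour scale). Rows above the black line are the 42 transcripts highest in GFP low replicate 3, those below it the other 17, and within each part rows are ordered by GFP high replicate 4 over replicate 1.

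The spread itself also differed between members. ENSDART00000167324.1, of 4941 bases, had the widest spread in the bright cells, a coefficient of variation of 34.7%. It was at 103.9, 64.2, 49.98 and 105.4 CPM in GFP high replicates 1 to 4, against 4.2, 10.3 and 7.35 CPM in GFP low replicates 3 to 5. ENSDART00000169321.1, of 2644 bases, was at 75.4, 80.4 and 79.5 CPM in GFP high replicates 1 to 3 and at 44.8 CPM in replicate 4, with 4.005, 3.10 and 4.59 CPM in GFP low. ENSDART00000122657.2, of 3495 bases, was among the evenest in the bright cells, at 331, 333, 355 and 340.2 CPM in GFP high and 44.6, 43.95 and 31.6 CPM in GFP low. ENSDART00000159626.1, of 2440 bases, had the smallest spread in the dim cells, with 99.9, 112.1, 119.6 and 132.1 CPM in GFP high and 6.81, 7.599 and 6.39 CPM in GFP low replicates 3 to 5.

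The library orders were also counted by the size of the ratio of GFP high to GFP low. Among transcripts of at least 50 CPM in GFP high, GFP low replicate 3 was the highest dim library for 22.5% of the 1365 with a ratio under 1, for 22.8% of 2003 from 1 to 2, for 30.8% of 247 from 2 to 4, for 42.9% of 63 from 4 to 8 and for 71.7% of 60 at 8 or more. GFP high replicate 1 was the lowest bright library for 385, 735, 79, 25 and 36 transcripts of these classes, the last of these being 60.0%. GFP high replicate 4 was at least 1.4 times replicate 1 for 1.68%, 3.54%, 2.83%, 7.94% and 18.3%. Each of the 3 shares was highest in the last class, and no test was made. That class holds the 59 members and ENSDART00000139096.1, and the 3 patterns counted are those described above for the members. The limit of 1.4 was set after the members' values were seen, so the shares of the last class are a description. The median level in GFP low was 99.8, 77.5, 53.9, 21.9 and 6.82 CPM in the same classes, and the part of low level in these shares was not tested.

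**Figure D4:**
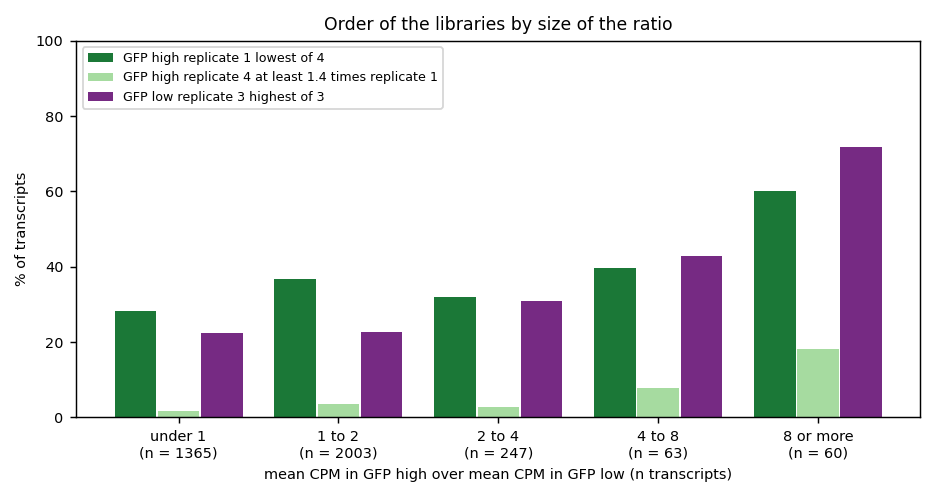
Percentage of transcripts in which GFP high replicate 1 was the lowest bright library, GFP high replicate 4 was at least 1.4 times replicate 1, or GFP low replicate 3 was the highest dim library, by the ratio of mean CPM in GFP high over GFP low, for transcripts of at least 50 CPM in GFP high. All 3 percentages are highest in the class of 8 or more, at 60.0%, 18.3% and 71.7%. The limit of 1.4 was set after the values of the members, which make up nearly all of that class, were seen.

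The members varied widely in length. They ran from 744 to 6132 bases with a median of 2103, where the other transcripts of at least 50 CPM in GFP high had a median of 2656 bases and all tested transcripts one of 1903. The longest, ENSDART00000157243.2, was at 107.9, 92.2, 90.7 and 96.55 CPM in GFP high replicates 1 to 4, against 8.84, 10.2 and 11.9 CPM in GFP low replicates 3 to 5. By length it was the member with the lowest TPM in GFP high, 27.8 ± 2.37 (SD, n = 4), against 2.85 ± 0.559 in GFP low (SD, n = 3). The second shortest, ENSDART00000167824.2, of 912 bases, was at 96.6, 101.9, 122.1 and 108.1 CPM in GFP high, against 13.5, 13.35 and 7.43 CPM in GFP low. Under 1000 bases lay 5 members.

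Counts were whole in all 7 libraries for 17 of the 59 members, the form they take where every read pair belongs to 1 transcript only. They were not whole in at least 1 library for the other 42, and in 25 they were whole in none. Values of these 42 depend in part on how reads were divided between similar transcripts, which can be isoforms of 1 gene or copies of it, and the files do not tell which.

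The members were also set beside the mirrored selection, the 150 transcripts that were at least 8-fold more abundant in GFP low and reached 50 CPM in that group. Within GFP high, replicate 1 was the lowest library for 59.3% of the 59 members and for 23.3% of the mirrored selection, and replicate 3 for 18.6% of the members and 42.7% of the mirrored selection. Within GFP low, replicate 3 was the highest library for 71.2% of the members and for 39.3% of the mirrored selection, replicate 4 for 18.6% and 57.3%, and replicate 5 for 10.2% and 3.33%. Replicate 5 was the lowest dim library for 52.5% of the members and for 83.3% of the mirrored selection. The difference between the selections was not tested, because transcripts of 1 library are not independent.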

How the data were processed

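RNA of sorted cells was made into cDNA with a SMART-Seq v4 kit and sequenced as read pairs of 100 bases, per the labels' protocols. The authors deposited 1 table for each of 7 libraries, with the estimated count, the TPM, the length and the effective length of 51033 transcripts. The submitters' processing notes list kallisto, sleuth and danRer10. No version or option is given in the sources used here. The estimated counts are the authors' values and are not normalized; the TPM values are also deposited and sum to 1000000 in each library. kallisto divides read pairs that match several transcripts between them, so similar transcripts are uncertain. Both TPM and CPM fall for all other transcripts where 1 transcript is very abundant.

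From these, CPM was computed as estimated count over column sum. Estimated counts were rounded and tested with edgeR 4.0.16 in R 4.3.3 (quasi-likelihood, robust, TMM, filterByExpr) over the 33114 transcripts that passed the filter, with Benjamini-Hochberg adjustment at 5%. Log2 fold changes are those of GFP high over GFP low, with SE as fold change over the square root of F. A count was taken as whole within 1e-06. The fit was tested on simulated data. Alternatives used DESeq2 1.42.0, limma 3.58.1, other scalings and filters, the replicate number as a block, other limits of the selection, and each library left out.

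The members and lists were chosen with earlier results of these data known. Transcripts are named by a rule: the 6 with most CPM in GFP high, the 6 largest ratios, the 3 on each side of each limit, the extremes of spread and length, and members not past 5%, of which there were 0. Others named in the text were chosen after their values were seen. Without names for the identifiers, cell type markers and sequences were not used here. The replicate numbers 3 and 4 occur in both groups. Precision is limited by depth: 3 counts are 0.117 to 0.282 CPM.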

Additional observations from a re-analysis of the deposited data

Results flagged for a closer look

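The 4 GFP high libraries were searched for 1 library far from the others, for each of the 59 members and for their summed share of counts. By chance about 1 in 20 groups is picked out this way. There were 7 in the 60, all of them single members that share the same libraries. In 6 of them GFP high replicate 1 stood below the others. ENSDART00000058745.4 was at 773.9 CPM there, against 932, 955 and 960.0 CPM in replicates 2 to 4. ENSDART00000137573.1 was at 344.6 CPM there and ENSDART00000129710.3 at 173.1 CPM, against 539.8, 556 and 529 CPM for ENSDART00000137573.1 in replicates 2 to 4 and 216.4, 211.7 and 209.7 CPM for ENSDART00000129710.3. ENSDART00000104206.3 was at 122.2 CPM there, against 189, 184 and 192 CPM in replicates 2 to 4. ENSDART00000127127.2 was at 99.87 CPM there and ENSDART00000076955.6 at 64.83 CPM, against 122.4 to 124.9 CPM and 87.55 to 89.9 CPM in the other 3 bright libraries. For all 6, GFP low replicate 3 was the highest dim library. The same held for 27 (77.1%) of the 35 members lowest in GFP high replicate 1. The seventh was ENSDART00000169321.1, at 44.78 CPM in GFP high replicate 4, against 75.4, 80.4 and 79.5 CPM in replicates 1 to 3.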

How the results depend on the processing

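The number of members was 59 as selected and 53 to 67 with each library left out, with 52 to 59 of the 59 among them. It was 39 at a ratio of at least 12, 29 at 100 CPM, 33 when every GFP high library had to be at least 8 times every GFP low library, and 17 among transcripts with whole counts in all 7 libraries, which was added after the data were seen. Deposited TPM in place of CPM gave 55, of which 50 were among the 59. Over all transcripts 7213 passed 5% in edgeR's test, 3364 with more in GFP high and 3849 with more in GFP low, or 2598 and 4687 when scaled by library size alone, which put the median over all transcripts at -0.12 on the log2 scale, against 0.0050 with TMM. With the replicate number as a block these were 2136, 860 and 1276, and 54 of 59 members passed. Only the numbers 3 and 4 occur in both groups, so in this fit the contrast rests on the libraries of these numbers alone. Every other library is taken up by its own block. The part that the smaller number of informative libraries has in the lower numbers past 5% was not tested. For the shared numbers 3 and 4, deviations from the group mean were correlated between the groups over the 33114 transcripts tested (r = 0.020 and 0.022). A low correlation cannot show that libraries of the same number came from different animals or pools, and no label tells. The 5 members not past 5% with the block were ENSDART00000143761.2, ENSDART00000145486.1, ENSDART00000091729.3, ENSDART00000063601.7 and ENSDART00000139001.2 (adjusted p = 0.136, 0.134, 0.0625, 0.0541 and 0.05035 by edgeR). DESeq2 did not pass ENSDART00000143761.2. In the 18 alternative fits 59 of 59 members kept a higher level in GFP high, which follows largely from how they were chosen and is a description. GFP low replicate 3 was the highest dim library for 42 members in CPM, 40 with TMM scaling and 43 in TPM, and GFP high replicate 1 the lowest bright library for 35, 37 and 32, where the TMM and TPM orders were also added after the data were seen. Depth limits what can be seen of the members in GFP low below 0.138 to 0.282 CPM.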
